A study of Mus musculus with 2 samples.

Results

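H3K36me3 peaks that lay away from protein-coding genes were examined in unstimulated mouse macrophages. A peak was included when its midpoint was more than 5 kb from every protein-coding gene body of GENCODE release M21, the annotation of the mm10 assembly. The rule kept 356 of the 56117 peaks in the authors' list of replicated peaks, or 0.634% of them. By midpoint, 188 (52.8%) lay in an annotated noncoding RNA gene, 60 (16.9%) in another annotated gene such as a pseudogene, and 108 (30.3%) in no annotated gene.

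The cells were macrophages grown from C57BL/6J bone marrow without stimulation, profiled by chromatin immunoprecipitation and sequencing (ChIP-seq) against histone H3 trimethylated at lysine 36. There was 1 group of 2 biological replicates, and no genotype, treatment or time was varied. In the labels the replicates are different biosamples that trace to the same donor entry, so their spread may be technical, and sex and age are not recorded. Libraries were made from 10 ng of DNA, with fragments of 350 to 480 bp.

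H3K36me3 is written by SETD2, a methyltransferase that travels with elongating RNA polymerase II, so the mark follows transcription through gene bodies and is usually low at promoters and high towards the end of the gene. Long noncoding RNA genes, the long primary transcripts that are cut into microRNAs, and transcribed pseudogenes are made by the same polymerase and can carry the mark. In genome maps it has been used to find such transcripts where no coding gene is annotated.

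The microRNA hairpins under these peaks include several that are well known in macrophages and in growth control. One mature strand of each of 8 is shown, because they are defined products of the marked regions. Sequences are from RefSeq (GRCm38.p6), 5′ to 3′, with the seed (bases 2 to 8), which pairs with target mRNAs, in capitals. The order follows shared seeds.
miR-29a-3p, from Mir29a on the minus strand of chr6:31062660-31062747: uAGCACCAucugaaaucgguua
miR-29b-3p, from Mir29b-1 on the minus strand of chr6:31063023-31063093: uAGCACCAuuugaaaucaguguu
miR-15a-5p, from Mir15a on the minus strand of chr14:61632027-61632110: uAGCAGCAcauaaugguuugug
miR-16-5p, from Mir16-1 on the minus strand of chr14:61631880-61631972: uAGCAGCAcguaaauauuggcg
miR-146a-5p, from Mir146 on the minus strand of chr11:43374397-43374461: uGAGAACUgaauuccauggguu
miR-101a-3p, from Mir101a on the minus strand of chr4:101346945-101347027: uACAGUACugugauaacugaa
miR-34a-5p, from Mir34a on the plus strand of chr4:150068454-150068555: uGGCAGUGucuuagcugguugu
let-7a-5p, from Mirlet7a-1 on the minus strand of chr13:48538179-48538272: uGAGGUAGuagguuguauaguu

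The 180 bases at the centre of the most enriched peak of each class are also shown, as examples of the DNA that carried the mark, from GRCm38.p6 (the mm10 assembly), plus strand, with each CG pair in capitals. The centre in Trerf1 holds 3 CG pairs, that in Slfn10-ps 4, and that beside Gm8995 1.
Trerf1, noncoding RNA gene, chr17:47348461-47348640: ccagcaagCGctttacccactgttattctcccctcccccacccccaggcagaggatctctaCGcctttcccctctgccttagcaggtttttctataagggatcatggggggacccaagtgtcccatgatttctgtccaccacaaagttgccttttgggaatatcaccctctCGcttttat
Slfn10-ps, another annotated gene, chr11:83028937-83029116: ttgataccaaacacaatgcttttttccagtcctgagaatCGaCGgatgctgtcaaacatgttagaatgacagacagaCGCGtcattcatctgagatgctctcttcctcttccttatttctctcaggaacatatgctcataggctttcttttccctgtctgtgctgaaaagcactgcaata
beside Gm8995, no gene, chr7:106511947-106512126: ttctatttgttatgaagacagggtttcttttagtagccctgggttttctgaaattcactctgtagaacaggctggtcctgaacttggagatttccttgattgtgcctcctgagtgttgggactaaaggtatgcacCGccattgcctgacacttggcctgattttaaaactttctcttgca

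The values used are those of the authors' peak lists: the position of a peak, its enrichment (a ratio over the background of the authors' caller) and its −log10 q. The peaks were chosen by the peak calls of the replicated list and their position, so their number and enrichment describe them and were not tested. With 1 group, no test across samples could be made, and each share is set beside the same share over all replicated peaks. Read counts are absent from peak lists, which leaves the sequencing depth unknown. Replicate 1 had 32098 peaks in its own list and replicate 2 had 58505, and the part of this gap in the differences between the replicates given here was not tested. A mark in few of the cells and a weak mark in all of them cannot be told apart in such bulk samples. For the cell type, all 10 macrophage markers had at least 20% of the gene body under peaks in replicate 2, and 6 of 10 did in replicate 1. None of the T cell, B cell, fibroblast and erythroid markers did, and of 5 neutrophil markers Csf3r alone did.

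Peaks away from coding genes were rare, given how much of the genome they could fall in. They covered 474.5 kb, which was 0.552% of all bases under replicated peaks, while the space more than 5 kb from coding genes made up 56.5% of the genome. Their median enrichment was 3.05, against 3.14 over all replicated peaks, and their median length was 919.5 bp, against 1061 bp. The most enriched peak of each class stood at 6.27 (noncoding RNA gene), 8.72 (another gene) and 6.10 (no gene), against a highest value of 9.07 over the whole list. By the same rule, replicate 1's own list gave 188 peaks away from coding genes and replicate 2's gave 403. The peaks were thus few in each of these lists, but their middle values lay close to those of the list as a whole.

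Some of them lay in groups along the chromosomes, though loci were not counted over the whole list for comparison. When peaks less than 10 kb apart were joined, the 356 formed 169 loci, of which 97 held a single peak and 13 held 5 or more. Those 13 loci held 104 of the 356 peaks. The largest spanned the end of Lncpint and the Mir29a and Mir29b-1 hairpins, with 18 peaks over 51168 bp of chromosome 6. The median gap to the nearest other replicated peak of any kind was 858.5 bp, against 250 bp over the whole list, so these peaks had farther neighbours.

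Peaks of each replicate's own list were laid over them. A peak counted as touched when at least 1 bp lay under a peak of that replicate. An enrichment given for a replicate is the highest among that replicate's peaks that touch the peak, so neighbouring peaks can share it. Of the 356, 125 (35.1%) were touched in replicate 1, against 40.0% of all replicated peaks, and 239 (67.1%) in replicate 2, against 71.9%. In both replicates 112 (31.5%) were touched, against 35.7%, and in neither 104 (29.2%), against 23.7%. The exact Clopper-Pearson 95% intervals, which cover counting error over peaks only, ran between 30.2% and 40.3% for replicate 1 and between 62.0% and 72.0% for replicate 2. Both intervals hold the whole-list share, near their upper end. These intervals, and those by class below, count each peak as independent. Many peaks share a locus, so the intervals can be too narrow and are not a test.

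The classes spread on both sides of the whole-list shares. In another annotated gene, 53.3% were touched in replicate 1 (exact Clopper-Pearson 95% interval 40.0% to 66.3%) and 80.0% in replicate 2 (67.7% to 89.2%). In noncoding RNA genes, 31.4% were touched in replicate 1 (24.8% to 38.5%) and 65.4% in replicate 2 (58.2% to 72.2%). In no gene, 31.5% were touched in replicate 1 (22.9% to 41.1%) and 63.0% in replicate 2 (53.1% to 72.1%). Peaks in pseudogenes and similar genes thus stood above the whole list in both replicates by this count, and the other classes below it. These differences were not tested. Peaks in another gene also had a longer median length, 1196 bp, against 871.5 bp in noncoding RNA genes and 910.5 bp in no gene. By bases in replicate 1, the gene-free class stood above the whole list instead, with 34.4% covered against 32.8%. The other 2 classes kept their side, with 45.6% in another gene and 26.5% in noncoding RNA genes. With at least 50% of the peak covered as the rule, 23.3% of the peaks were found in replicate 1, against 22.7% of the whole list, and 62.9% in replicate 2, against 67.4%. Counted by bases, 32.9% of the bases under these peaks were under replicate 1 peaks, against 32.8% over the whole list, and 74.3% were under replicate 2 peaks, against 77.2%.

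**Figure D1:**
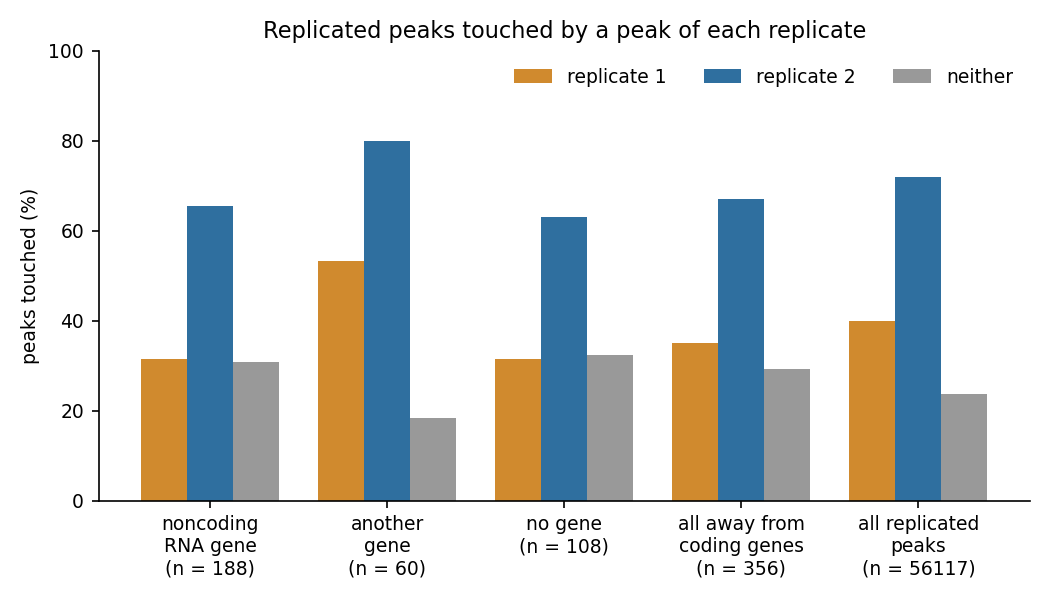
Percent of replicated peaks touched by at least 1 bp of a peak of replicate 1 (orange), of replicate 2 (blue) or of neither (grey), for each class of peaks away from coding genes, for all of them and for the whole list (n under each group). Peaks in another annotated gene stand highest, at 53.3% in replicate 1 and 80.0% in replicate 2.

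Peaks found in both replicates were the long and strong ones. Their median enrichment was 3.80 and their median length 1921.5 bp, while the 104 found in neither had a median enrichment of 2.56 and a median length of 529.5 bp. Over the whole list the same medians were 3.63 and 2072 bp for peaks found in both, and 2.64 and 547 bp for peaks found in neither. The authors' replicated list is therefore not a list of peaks that each replicate's own list also holds.

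The distance to the nearest coding gene separated the classes. It had a median of 28.5 kb in noncoding RNA genes, 19.8 kb in another gene and 12.3 kb in no gene. Within 10 kb of a coding gene lay 46 of the 108 gene-free peaks (42.6%), but 33 of the 188 in noncoding RNA genes (17.6%) and 11 of the 60 in other genes (18.3%). Beyond 100 kb lay 53 peaks in noncoding RNA genes, 2 in other genes and 13 in no gene. Gene-free peaks thus had the lowest median and noncoding RNA peaks the highest, though the farthest single peak, at 547048 bp, was gene-free. Of the 53 far noncoding peaks, Lncpint held 22, and Zswim6 and Trerf1, which RefSeq calls coding, held 14 and 4. Just inside the 5 kb limit were gene-free peaks 5079 bp from Rftn1, 5100 bp from Baz2b and 5112 bp from Papolg, each past the gene's end, with enrichments of 3.17, 2.27 and 2.40. Just outside it were peaks 4922 bp from Chd2, 4945 bp from Nucb2 and 4953 bp from Stx12, with enrichments of 2.27, 3.14 and 3.33.

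**Figure D2:**
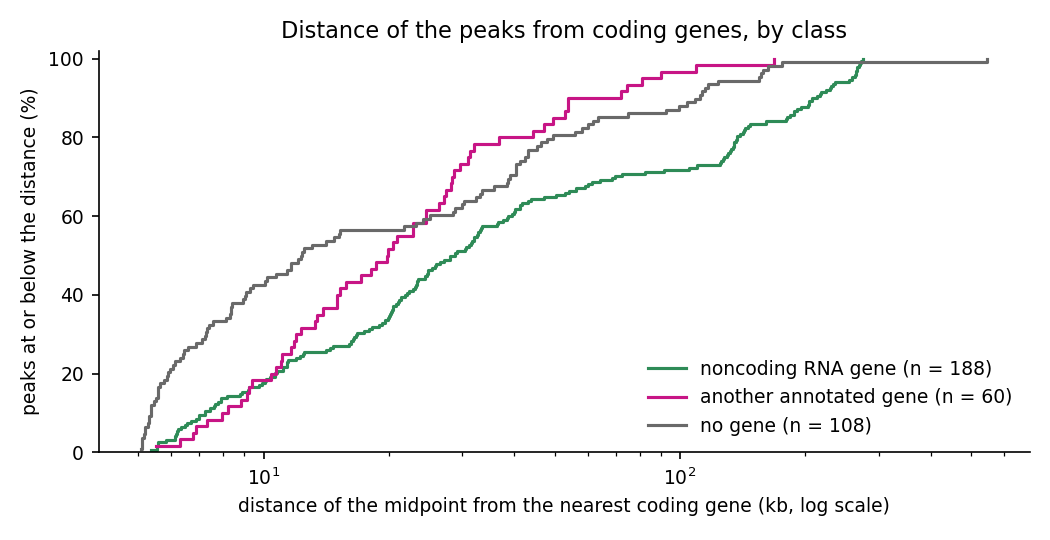
Percent of the peaks of each class (vertical axis) whose midpoint lay at or below a given distance from the nearest coding gene (horizontal axis, kb, log scale). The gene-free peaks (grey) climb first, with 42.6% within 10 kb, and the noncoding RNA peaks (green) last, with 28.2% beyond 100 kb.

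The 188 noncoding RNA peaks lay in 76 host genes, of which 39 held a single peak. The 5 hosts with the most bases under peaks (Lncpint, Trerf1, Zswim6, 5530601H04Rik and AU020206) held 68 peaks, or 36.2% of the class. By type, 45 hosts were lincRNA genes with 95 peaks, 18 were processed transcripts with 83 peaks, and 7 were antisense genes with 11 peaks. A peak in 2 overlapping hosts was counted in each. The share of a gene body under peaks, given below per replicate, counts every peak of that replicate's list, also any within 5 kb of a coding gene.

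The type given by the annotation was not always shared by RefSeq. Of the 356 peaks, 84 (23.6%) had their midpoint in a gene that RefSeq calls coding, and 11 more lay within 5 kb of one. Trerf1 and Zswim6, both zinc finger genes and the largest hosts after Lncpint, are processed transcripts in GENCODE M21 and coding genes in RefSeq, with 18 and 14 peaks. More than 5 kb from the coding genes of both annotations lay 261 peaks (73.3%), of which 31.8% were touched in replicate 1 and 69.0% in replicate 2. The 84 in RefSeq coding genes were touched in 45.2% of cases in replicate 1 and 64.3% in replicate 2.

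Lncpint, a long noncoding RNA known to be induced by p53, held the most peaks. It runs over 137.9 kb on the minus strand of chr6:31082565-31220488 and had 22 peaks, with enrichments of 2.16 to 3.80. Of its body, 2.48% was under peaks in replicate 1 and 19.4% in replicate 2. Its peaks were thus many and mostly a feature of replicate 2, where 15 of the 22 were touched, against 5 of the 22 in replicate 1.

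The series of peaks did not stop where the annotated gene ends. Past its end, on chr6:31055881-31083044, lay 8 gene-free peaks, 3 of them long. Those 3 were 5554, 2964 and 5580 bp long with enrichments of 3.80, 3.73 and 3.96, and replicate 1 peaks covered 50.04%, 63.6% and 59.2% of them. Replicate 2 peaks covered 96.5%, 80.2% and 98.3% of the same 3. The 3 long peaks were thus found in both replicates, and the other 5 of the run were touched in replicate 2 alone.

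Trerf1 held the most enriched noncoding RNA peak. This peak, chr17:47345127-47351974, was 6848 bp long with an enrichment of 6.27 in the replicated list, 4.34 in replicate 1 and 9.03 in replicate 2. Of the Trerf1 body of 221 kb, 2.69% was under peaks in replicate 1 and 10.9% in replicate 2. The peaks sat towards the end of the gene, with a median position at 88.1% of its length, and those of Zswim6 did too, at 91.7%. Zswim6 had 3.95% of its body under peaks in replicate 1 and 10.1% in replicate 2.

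AU020206, a lincRNA gene taken into the list of immune genes, was under peaks over most of its length in both replicates. Its 2 peaks, of 3546 and 5532 bp with enrichments of 4.70 and 6.19, were found in both replicates. Peaks covered 54.1% of its 13.1 kb body in replicate 1 and 66.0% in replicate 2. Tug1, a nuclear and cytoplasmic lncRNA typed as antisense, had a like coverage of 54.6% in replicate 1 and 65.6% in replicate 2. Of the 15 noncoding hosts with the most bases under peaks, these 2 alone reached 20% in both replicates, while 8 of the 15 did in replicate 2.

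Malat1 and Neat1, neighbours on chromosome 19 whose RNAs sit in nuclear speckles and paraspeckles, had peaks of 742 to 1744 bp past the middle of the gene. The 2 peaks of Malat1 lay at 58.7% and 83.35% of its length. Malat1 had 11.5% of its body under peaks in replicate 1 and 25.0% in replicate 2. Neat1 had 6.11% in replicate 1 and 25.5% in replicate 2, and its 4 peaks had a median position at 88.9% of its length. In both genes the coverage was partial and higher in replicate 2.

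Peaks covered 3 snoRNA genes, in 2 hosts. Small nucleolar RNAs guide the chemical modification of other RNAs and are mostly cut from introns. Snhg17, such a host, had 18.98% of its body under peaks in replicate 1 and 62.5% in replicate 2. Its 3554 bp peak (enrichment 3.38) spanned the snoRNA genes Gm24411 and Gm26003. Snora15 lay under a 2236 bp peak (enrichment 4.04) in Cct6a, a chaperonin subunit gene that GENCODE M21 types as a processed transcript and RefSeq as coding. Replicate 2 peaks reached all 3 snoRNA genes, and a replicate 1 peak reached Gm24411.

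**Figure D3:**
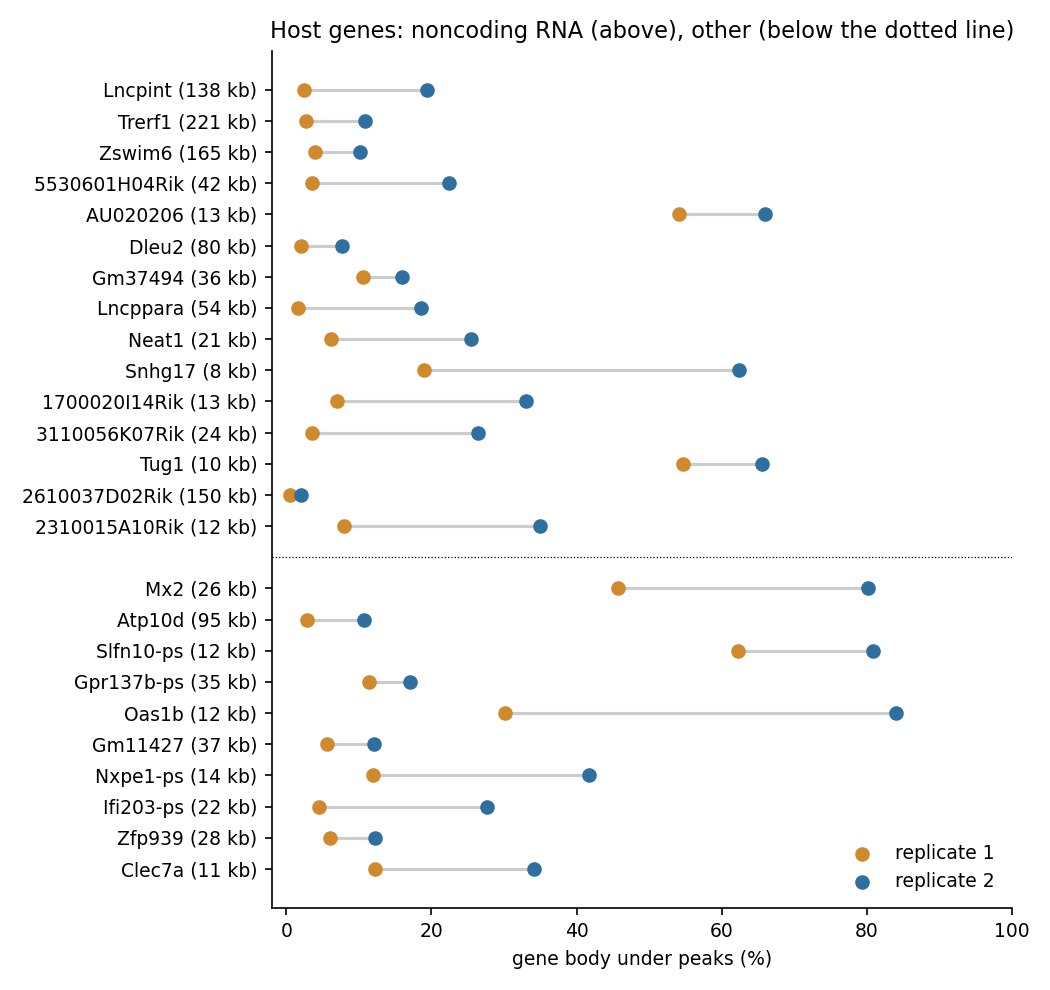
Percent of the gene body under peaks in replicate 1 (orange) and replicate 2 (blue), for the 15 noncoding RNA hosts with the most bases under peaks away from coding genes (above the dotted line, top to bottom in that order) and for 10 other hosts (below). Replicate 2 is higher in every host drawn, and AU020206, Tug1, Mx2, Slfn10-ps and Oas1b pass 20% in both replicates.

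Most genes on the lists of known lncRNAs and microRNAs held no midpoint of such a peak. Of 33 annotated nuclear and housekeeping genes, 6 held one (Malat1, Neat1, Tug1, Snhg17, Dleu2 and Mir99ahg), and of 18 immune and macrophage genes, 3 did (AU020206, Lncpint and Firre). Of 12 imprinted and X-linked genes, Ftx and Jpx did, and of 11 genes known from other tissues none did. At least 20% of the body was under peaks in both replicates in 4 of the 33 nuclear and housekeeping genes. Of the 18 immune genes, 1 (AU020206) reached this, and the share over all annotated genes was 3.85%. The 4 nuclear and housekeeping genes each overlap a coding gene or lie within 5 kb of one, and of them Tug1 alone held such a midpoint. Mir146 does not count here, since its hairpin was under a peak whose midpoint lay beside it. Oip5os1, a listed housekeeping gene, is left out of the 33 because genes were looked up by their GENCODE name. RefSeq's Oip5os1 lies over GENCODE's 1700020I14Rik, which held 4 peaks. Its body was covered to 7.04% in replicate 1 and 33.1% in replicate 2. Genes such as Gas5 lie within 5 kb of coding genes, so their peaks were outside the rule.

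Seen from the genes, marking far from coding genes was the exception. Of 4862 long noncoding RNA genes lying wholly more than 5 kb from coding genes, 25 (0.514%) had a peak in both replicates, against 28.8% of protein-coding genes and 12.9% of all annotated genes. With 20% of the body under peaks in both replicates there were 2 of the 4862, AU020206 and the 404 bp Gm27019 beside Mir29b-1. Small RNA and other genes seldom held peaks either. Of 757 microRNA genes that far away, 6 (0.793%) had a peak in both replicates, and of 11120 other genes 16 (0.144%) did. These long noncoding RNA genes had a median length of 6.84 kb, against 17.4 kb for protein-coding genes. Among genes of 5 kb or more, 23 of 2814 (0.817%) had a peak in both replicates, against 34.5% of protein-coding genes. Transcription was not measured here.

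The position of the mark along the hosts was set beside that in coding genes, both chosen for holding a peak of the replicated list. Over the 35 noncoding hosts of 5 kb or more that lie wholly away from coding genes, the first of 10 equal bins of the gene had 0% of its bases under peaks in replicate 1 and 0.716% in replicate 2. The last bin had 14.9% in replicate 1 and 34.6% in replicate 2. Among 7698 coding genes of the same minimum length that held a peak midpoint, the first bin had 0.686% in replicate 1 and 2.59% in replicate 2, and the last had 15.9% in replicate 1 and 42.5% in replicate 2. Both sets thus started near 0. The hosts were highest in the last bin, while the coding genes were highest in the ninth, with 18.3% in replicate 1 and 46.2% in replicate 2.

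Leaving out the hosts that RefSeq calls coding kept this shape. In the 29 other hosts, the last bin had 10.9% of its bases under peaks in replicate 1 and 30.6% in replicate 2. The 13 hosts that are other annotated genes did not show it: their first bin had 10.4% in replicate 1 and 29.6% in replicate 2, and their last had 10.9% in replicate 1 and 24.2% in replicate 2. Exons of the 35 noncoding hosts were covered more than introns, at 10.7% of bases against 2.32% in replicate 1 and 29.2% against 8.65% in replicate 2. In the coding genes the same values were 16.5% against 6.01% in replicate 1 and 40.4% against 17.1% in replicate 2.

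**Figure D4:**
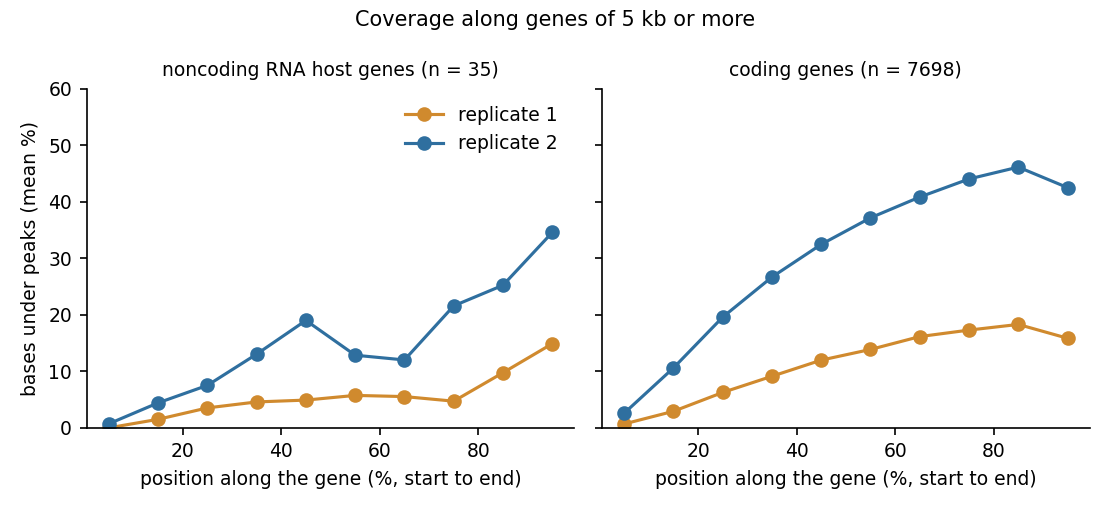
Mean percent of bases under peaks (vertical axis) in 10 bins from the start to the end of the gene (horizontal axis), in replicate 1 (orange) and replicate 2 (blue), for 35 noncoding RNA hosts and 7698 coding genes of 5 kb or more. In both panels the first bin is under 3% and the last is above 14% in replicate 1 and above 34% in replicate 2.

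In all, 17 small RNA genes lay under the peaks, 11 of them microRNA genes. A replicate 1 peak reached 6 of the 11 hairpins and a replicate 2 peak 9. The 17 take in genes of the types misc_RNA and sRNA, which the next count leaves out. Of the 76 noncoding hosts, 15 carried a microRNA, snoRNA, small Cajal body RNA or small nuclear RNA gene within their body. A microRNA was carried by 10. The mature strands in the RefSeq table covered 9 of the 11 microRNA genes.

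Mir29a and Mir29b-1, whose products share the seed AGCACCA and are known to lower collagen and DNA methyltransferase mRNAs, lay under a single gene-free peak of 2964 bp. Its enrichment was 3.73 in the replicated list, 4.47 in replicate 1 and 5.21 in replicate 2. Within 20 kb on either side of Mir29a, 19.9% of bases were under replicate 1 peaks and 49.4% under replicate 2 peaks. The other copy of this family is carried by A330023F24Rik, a host on chromosome 1 that holds Mir29b-2 and Mir29c. It had 3 peaks with enrichments of 2.31 to 3.54, none of them over a hairpin, and its body was covered to 0.946% in replicate 1 and 7.34% in replicate 2.

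Mir146 makes miR-146a, which is known to restrain Toll-like receptor signalling through TRAF6 and IRAK1. Its hairpin lay under a gene-free peak of 2518 bp on chr11:43372717-43375234 with an enrichment of 3.55, 46.3 kb from the nearest coding gene, Pttg1. Replicate 2 peaks covered the whole of it, while a replicate 1 peak covered 44.9% and stopped short of the hairpin. The peak was thus shared in part, and over the hairpin it was found in replicate 2 alone.

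Mir101a, whose product is known to lower Ezh2 mRNA, had the most enriched of the peaks over a named microRNA with a mature strand in the table. This 2748 bp peak in E130102H24Rik had an enrichment of 5.36 in the replicated list, 4.61 in replicate 1 and 5.73 in replicate 2. Mir34a, a microRNA gene induced by p53, lay under a 1650 bp peak of enrichment 3.63, covered to 68.4% in replicate 1 and 97.5% in replicate 2. Its midpoint fell in Gm37795, a gene of the type TEC, which marks a transcript still to be tested. Both hairpins were reached in both replicates.

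Mirlet7a-1, of the let-7 family that is known to hold back growth genes, lay under a 493 bp peak of enrichment 3.38 in 6720427I07Rik. Replicate 1 peaks covered 72.4% of it and replicate 2 peaks 71.0%. The same host also carries Mirlet7d and Mirlet7f-1, whose hairpins were under no peak of this kind. Lncppara, which carries Mirlet7c-2 and Mirlet7b, had 4 peaks and 1.63% of its body covered in replicate 1 and 18.5% in replicate 2, with neither hairpin under them.

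Mir15a and Mir16-1, whose products share the seed AGCAGCA and are known to lower Bcl2 and cell-cycle mRNAs, lay under a single 981 bp peak in Dleu2. Its enrichment was 2.89, and neither replicate's own list held a peak there. Dleu2 had 9 peaks of 325 to 1909 bp and 1.99% of its body covered in replicate 1 and 7.65% in replicate 2. This is a locus where the replicated list gave a peak that its replicates did not.

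Mir30d, in Gm20732, and Mir6363, on the opposite strand to its host Dubr, lay under peaks with enrichments of 3.30 and 2.89, and both hairpins were reached in replicate 2 alone. ChIP-seq has no strand, so the peak cannot say which of the overlapping genes on opposite strands carried it. Gm27598, an annotated microRNA gene inside Slfn10-ps, was reached in both replicates.

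**Figure D5:**
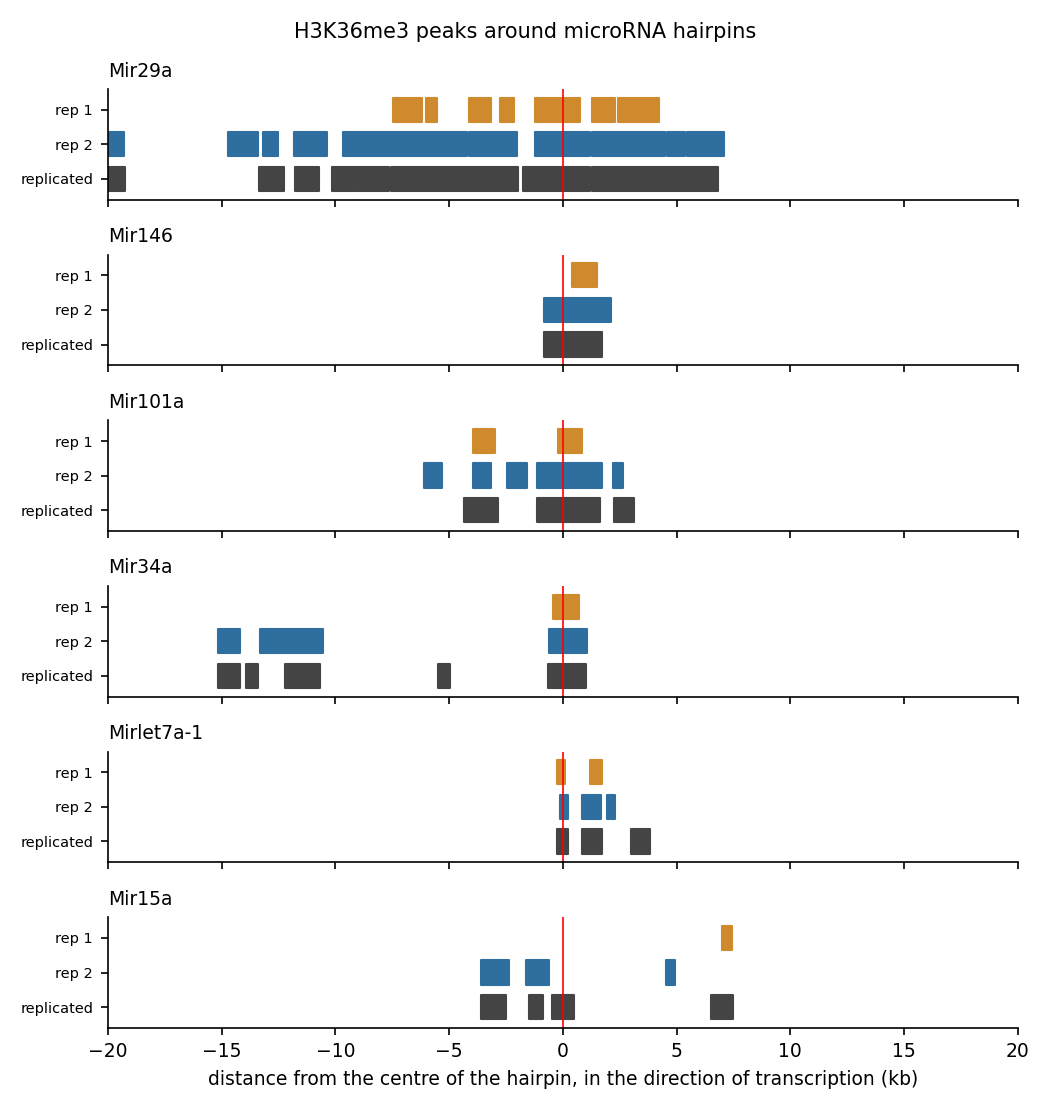
Peaks of replicate 1 (orange), replicate 2 (blue) and the replicated list (black) within 20 kb of 6 microRNA hairpins (red line), with distance from the hairpin's centre in kb in the direction of transcription. Around Mir29a, peaks run over 49.4% of the window in replicate 2 and 19.9% in replicate 1, while over Mir15a the replicated list alone has a peak.

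The 60 peaks in other annotated genes lay in 27 hosts, of which 13 were transcribed unprocessed pseudogenes with 29 peaks and 4 were polymorphic pseudogenes with 20 peaks. The type polymorphic pseudogene is meant for a gene broken in the reference strain and intact in some others. Clec7a has this type in GENCODE M21, though RefSeq calls it coding. Several of the 27 hosts belong to families induced by interferon. Their reads can be shared with near-identical family members, and how the authors placed such reads is not given in the sources used here.

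Mx2, a dynamin-like antiviral GTPase gene, held the most bases of this class, 21.8 kb in 6 peaks. Its longest peak, chr16:97552808-97563020, was 10213 bp with an enrichment of 4.79 in the replicated list, 3.93 in replicate 1 and 5.90 in replicate 2. Peaks covered 45.7% of the gene in replicate 1 and 80.1% in replicate 2. Oas1b, an oligoadenylate synthetase gene known for resistance to flaviviruses, had a single 6504 bp peak of enrichment 4.36 and was covered to 30.2% in replicate 1 and 84.0% in replicate 2.

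Slfn10-ps, a pseudogene of the Schlafen family, held the 3 most enriched peaks of the class. They had enrichments of 8.72, 5.20 and 5.15, and peaks covered 62.2% of the 11.9 kb gene in replicate 1 and 80.8% in replicate 2. The first of them stood at 6.62 in replicate 1 and 9.31 in replicate 2, and the second had the same 9.31 in replicate 2. Ifi203-ps, of the interferon-induced p200 family, had 5 peaks, and its body was covered to 4.46% in replicate 1 and 27.6% in replicate 2.

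Gpr137b-ps had a 3298 bp peak of enrichment 4.99 that was found in both replicates, and 11.4% of its body was covered in replicate 1 and 17.1% in replicate 2. Atp10d, a phospholipid-transporting ATPase gene, had 9 peaks and 2.88% of its body covered in replicate 1 and 10.8% in replicate 2. Gm11427 had 7 peaks, with 5.54% covered in replicate 1 and 12.1% in replicate 2. These 3 genes had many or strong peaks but a small covered share. Zfp939 and H2-K2, a zinc finger and a class I histocompatibility locus, each held 1 of the 8 most enriched peaks of the class, at 4.83 and 4.70. Clec7a, which encodes the β-glucan receptor Dectin-1 and which RefSeq calls coding, had 4 peaks and 12.2% of its body covered in replicate 1 and 34.2% in replicate 2.

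Of the 108 gene-free peaks, 46 lay within 10 kb of a coding gene, 41 between 10 and 50 kb, 8 between 50 and 100 kb and 13 beyond 100 kb. Of the 46 within 10 kb of a coding gene, 42 (91.3%) lay past its end, at 33 genes, and 4 before its start. Of the 42, 4 lay inside the same gene as RefSeq draws it (2 at Klrg2, 1 at Rbm12b2 and 1 at Atg4c), 6 lay outside RefSeq coding genes but within 5 kb of one, and 32 lay more than 5 kb from them. Among all gene-free positions at the same distance, taken every 100 bp, 46.6% lay past the end of the nearest coding gene. For the 42, a median of 36.9% of the bases from the gene's end to the peak's midpoint was under replicated peaks. That stretch includes the nearer part of the peak itself, so the share is never 0 and is higher for longer peaks at the same distance. In noncoding RNA genes, by contrast, 12 of the 33 peaks within 10 kb lay past the end of the coding gene.

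Alox5ap, whose product is needed for leukotriene synthesis, had the longest of the near peaks. This peak, chr5:149290060-149296561, was 6502 bp with an enrichment of 4.87, covered to 76.8% in replicate 1 and 88.9% in replicate 2. Of the stretch from the gene's end to the peak's midpoint, 90.6% was under replicated peaks, with the nearer part of this long peak counted in. Past Cd53, a leukocyte tetraspanin gene, a 2503 bp peak had the highest enrichment of the near group, 5.45. By the same measure, 35.2% of its stretch was under replicated peaks. Past Atp6v1c1, a subunit of the proton pump that acidifies lysosomes, lay 2 peaks of 4.29 and 4.04. For each of them the measure was 93.0%. The covered share thus differed between these peaks, and whether a peak continued the mark of its gene was not tested.

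Beyond 100 kb from coding genes, 7 of the 13 gene-free peaks belonged to the run past Lncpint and 4 lay beside Gm8995, an annotated pseudogene on chromosome 7. The largest of these 4, chr7:106507904-106516170, was the longest gene-free peak at 8267 bp and the most enriched at 6.10, with 5.29 in replicate 1 and 7.81 in replicate 2. Its midpoint lay just outside the pseudogene as GENCODE draws it and inside the longer Gm8995 of RefSeq. Of its bases, 45.6% lay over the GENCODE pseudogene, which is a single exon. The last 2 peaks of the 13, on chromosomes 13 and 15, were 298 and 269 bp long with enrichments of 2.48 and 1.97, and neither replicate's own list held them.

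Several of the most enriched gene-free and noncoding peaks lay in gene models that RefSeq calls coding. On chromosome 17, the peaks in Gm6712 (enrichment 5.78), Gm5165 (4.70), Gm38396 (5.79) and Gm51425 (4.62) were of this kind, and the 4 were found in both replicates. On chromosome 5, a 3830 bp peak in the RefSeq coding gene Zfp33b had an enrichment of 4.63 and was covered to 71.5% in replicate 1 and 94.2% in replicate 2. Gm39469 on chromosome 9 held a gene-free peak of 4.79, covered to 95.8% in replicate 1 and 99.8% in replicate 2. Other strong peaks lay in noncoding genes that RefSeq does not call coding, such as E430024I08Rik with 4.95, found in both replicates. Past Tmcc2, a 1016 bp gene-free peak of 4.46 was touched in replicate 2 alone. Its midpoint lay inside the lncRNA gene F730311O21Rik as RefSeq draws it. Over the class, 17 of the 108 gene-free peaks lay in a RefSeq coding gene and 75 in no RefSeq gene at all. More than 5 kb from RefSeq coding genes and in no gene of either annotation lay 66.

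The X chromosome held 20 of the peaks. These were 5.17% of its 387 replicated peaks, while 0.634% of all replicated peaks were away from coding genes. The gene 5530601H04Rik held 12 of the 20, with enrichments of 2.54 to 3.57, and was covered to 3.52% in replicate 1 and 22.5% in replicate 2. Jpx and Ftx, lncRNA genes of the X inactivation centre, held 2 peaks each, and Firre, a nuclear lncRNA gene, held 1. Of these 5 peaks a single one, in Ftx, was touched in replicate 2 and none was touched in replicate 1.

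In base content the medians lay close to those of the whole list. Their median GC content was 44.5%, against 44.2% over all replicated peaks, and their median CpG content was 0.990 per 100 bp, against 1.02. Repeat-masked bases made up a median of 16.98%, against 17.6%, and 21.1% in the gene-free peaks. The gap was wider for exons. An exon of some annotated gene was touched by 46.6% of them, against 62.6% of the whole list. Within the 3 classes that share was 58.5% in noncoding RNA genes, 75.0% in another gene and 10.2% in no gene.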

How the data were processed

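H3K36me3 ChIP-seq peak lists of 2 replicates of 1 group were used. Per the labels, the assembly is mm10. Per the file headers, the authors deposited a list for each replicate, a pooled list and a list of replicated peaks. Which aligner and peak caller were used is not given in the sources. The deposited score of a peak is the authors' display value, its enrichment is the authors' ratio over their caller's background, and its −log10 p and −log10 q values are the authors' too. Of the 56117 replicated peaks, 48481 have the same start and end in the pooled list. No read counts were used, so depth is unknown and intervals cover counting error over peaks only.

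Gene bodies came from GENCODE M21, with RefSeq genes (GRCm38.p6) laid over them. A midpoint in a noncoding RNA gene and another gene counted as noncoding. Covered bases, distances, GC, CpG and soft-masked shares were computed in pandas 2.3.3 and numpy 2.4.6 under Python 3.11.15, intervals in scipy 1.17.1, figures in matplotlib 3.10.9 and sequences with samtools 1.23.1, and the steps were tested on simulated data. Marked genes had 20% of the body under peaks in both replicates.

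The peaks, gene lists and rule for named genes were chosen with earlier results of these data known. The rule took the 15 noncoding and 6 other hosts with the most bases under the peaks, hosts of small RNA genes and small RNA genes touched, the 8 most enriched peaks of each class, the 6 longest gene-free peaks, listed genes with a peak, and the 3 peaks on either side of 5 kb. Clec7a, Atp6v1c1, Gas5 and Gm27019 fall outside it and were chosen after their values were seen. The alternatives were other distances, stricter peaks, the whole peak, the pooled list, each replicate's list and a 50% overlap.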

Additional observations from a re-analysis of the deposited data

How the results depend on the processing

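Of 84 alternative values, 58 stayed close to the reported ones and 26 moved. The number of peaks was 601 at 2 kb, 231 with a −log10 q of at least 5 and 184 with an enrichment of at least 3. With 1 replicate left out (the other's own list) it was 188 without replicate 2 and 403 without replicate 1. The share in noncoding RNA genes was 38.9% at 2 kb, 58.3% at 10 kb and 38.3% to 51.9% with a replicate left out. In another gene it was 10.7% at 2 kb and 16.4% to 24.5% with a replicate left out. In no gene it was 50.4% at 2 kb, 23.3% at 10 kb and 31.8% to 37.2% with a replicate left out.

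The share touched in replicate 1 was 52.4% with a −log10 q of at least 5, 60.9% with an enrichment of at least 3, 29.95% of the pooled list, 30.02% of replicate 2's list and 23.3% with 50% overlap. In replicate 2 it was 85.7% with that q, 92.4% with that enrichment, 74.1% of the pooled list and 81.4% of replicate 1's list. The median enrichment was 3.53 with an enrichment of at least 3 and 3.25 to 3.82 with a replicate left out. The median length was 1288 bp with the stricter q, 1509 bp with the stricter enrichment and 700.5 to 876 bp with a replicate left out. The cause was not tested.

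Counting RefSeq coding genes as coding, an alternative chosen after seeing the data, left 261 peaks. At 2 and 10 kb, also chosen then, 31 and 19 long noncoding RNA genes had a peak in both replicates, against 25 at 5 kb. No paired analysis was possible because there is 1 group. A place without a peak is undetected in that list, since depth is unknown.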
